A study of Mus musculus with 1 sample.

Results

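The genes described here were 9 genes of steroid and thyroid hormone signalling, read across the cell types of the early postnatal mouse adrenal gland. They are the receptors Nr3c1 (the glucocorticoid receptor), Nr3c2 (the mineralocorticoid receptor), Esr1 (oestrogen receptor alpha), Thra and Thrb (the thyroid hormone receptors), the corticosteroid-converting enzymes Hsd11b1 and Hsd11b2, and the glucocorticoid-induced genes Fkbp5 and Tsc22d3. They were taken by symbol, not by level, and make up 9 of the 32285 genes in the count table. The study profiled single cells of the adrenal medulla, still growing at that age, in wild-type animals on postnatal day 15. Medullae from 10 adrenals of 5 mice of mixed sex were pooled after most of the cortex had been trimmed off by hand, and 10000 viable cells entered 1 droplet library. The colony had a mixed background crossed to CD1 mice. There was no treatment and no second genotype, and single animals are not marked, so the comparisons were between cell classes of 1 pooled library and no test between samples was possible. All 11214 barcodes were distinct.

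Corticosteroids made in the cortex reach the medulla through the sinusoids that cross the gland, so that chromaffin cells are exposed to them at high local levels. The glucocorticoid receptor waits in the cytoplasm with heat shock protein chaperones, enters the nucleus when it binds hormone, and switches on genes such as Fkbp5, a co-chaperone that lowers the hormone affinity of the receptor, and Tsc22d3, which encodes the anti-inflammatory leucine zipper protein GILZ. Glucocorticoids are known to raise Pnmt, the enzyme that converts noradrenaline to adrenaline. The enzyme encoded by Hsd11b1 regenerates active glucocorticoid inside cells, while that of Hsd11b2 inactivates it and in kidney keeps the mineralocorticoid receptor free for aldosterone. Thyroid hormone receptors sit on DNA as partners of retinoid X receptors and activate or repress genes depending on the hormone.

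Glucocorticoid receptors bind pairs of TGTTCT and its reverse complement AGAACA, and thyroid hormone receptors bind copies of AGGTCA or its reverse complement TGACCT. The DNA before the starts of Fkbp5, Tsc22d3 and Thrb is printed because the levels of these 3 genes differed widely between cell classes. RefSeq windows (GRCm38.p6) of 250 bases before each transcript start were used, and any stretch that GENCODE M21 annotates as exon was cut away together with all bases after it. The Fkbp5 window lies at chr17:28486150-28486399, minus strand, in intronic sequence of the gene as GENCODE draws it. The second Tsc22d3 start has 113 bases left at chrX:140600660-140600772, minus strand, directly upstream of the annotated gene. The third Tsc22d3 start, at chrX:140548572-140548821, minus strand, is intronic, as are the 182 bases left before the first Thrb start, at chr14:17660710-17660891, plus strand. Capitals mark these motifs, and the rest is in lower case.
Fkbp5: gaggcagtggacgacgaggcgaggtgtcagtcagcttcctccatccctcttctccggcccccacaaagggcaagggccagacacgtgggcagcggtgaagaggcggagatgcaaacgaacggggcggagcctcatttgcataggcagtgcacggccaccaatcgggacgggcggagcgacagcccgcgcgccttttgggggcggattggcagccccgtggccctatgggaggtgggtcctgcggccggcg
Tsc22d3 start 2: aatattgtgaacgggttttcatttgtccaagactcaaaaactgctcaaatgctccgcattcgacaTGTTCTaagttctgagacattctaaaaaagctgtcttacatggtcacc
Tsc22d3 start 3: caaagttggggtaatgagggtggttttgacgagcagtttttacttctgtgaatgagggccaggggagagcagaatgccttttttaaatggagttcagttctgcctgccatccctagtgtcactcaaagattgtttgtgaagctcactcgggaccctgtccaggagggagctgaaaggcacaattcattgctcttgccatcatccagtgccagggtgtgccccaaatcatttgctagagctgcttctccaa
Thrb start 1: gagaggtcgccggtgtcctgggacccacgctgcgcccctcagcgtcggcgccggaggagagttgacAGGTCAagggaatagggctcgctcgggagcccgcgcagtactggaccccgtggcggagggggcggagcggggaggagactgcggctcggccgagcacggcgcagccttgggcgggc
The second Tsc22d3 window held TGTTCT once and the Thrb window held AGGTCA once, while the other windows held none of the marked motifs. The full glucocorticoid response element, AGAACA followed by 3 bases of any kind and TGTTCT, was in none of the 4 windows and in 3 of the 32851 RefSeq windows of 250 bases. On either strand TGTTCT was in 7.87% of all windows cut to their first 113 bases, and AGGTCA was in 10.3% of those cut to 182 bases. Of windows of 250 bases, 16.1% held TGTTCT and 14.0% held AGGTCA, so these short motifs were not rare, and such a match is a description of the letters and not a binding site.

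The table held 11214 barcodes with 500 to 33809 UMIs each (unique molecular identifiers, each standing for 1 transcript molecule read at its 3′ end), with a median of 3250. Of these, 10139 passed the study's filters, and 9445 fell into 14 classes named from markers. The classes were clustered without the 9 genes and their pathway genes among the variable features, so none of the 9 formed or named a class. They were adrenaline chromaffin-like (1671 cells), noradrenaline chromaffin-like (394), cycling chromaffin-like (130), transitioning-like with chromaffin and sustentacular markers together (414), outer cortex-like (784), fasciculata-like (878), inner cortex-like (1705), cycling cortex-like (354), endothelial-like (1749), cycling endothelial-like (401), immune-like (657, led by the macrophage genes C1qa and C1qb), lymphocyte-like (44) and fibroblast-like (88) cells. A cluster of 176 cells led by Scn7a and Col28a1 had sustentacular markers but a median of 1136.5 UMIs, under the limit of 1189 set from the overall median of 3567, with none of its markers among its 10 leading genes, and is called the Scn7a-led cluster. The ending -like is left off below. Pnmt, Th, Dbh, Akr1c18 and Abcb1b are described below but also helped to name classes, so their differences between classes are not independent of the naming. Although the sample was labelled medulla, the 3 non-cycling cortex classes made up 33.2% of the kept cells. Doublets were left in, and 694 cells of clusters with mixed markers were set aside.

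A level is the sum of a gene's UMIs in a class divided by all UMIs of that class, in CPM (1e6 times that fraction), with an exact Poisson 95% interval in brackets that covers counting error only. Each class summed 60581 (lymphocyte) to 10435626 (inner cortex) UMIs, so values are firmest in the large chromaffin, cortex and endothelial classes, and an order between classes is given only where intervals do not overlap. In summed RNA, fewer expressing cells and less RNA per cell cannot be told apart. Levels of different genes are not compared.

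**Figure D1:**
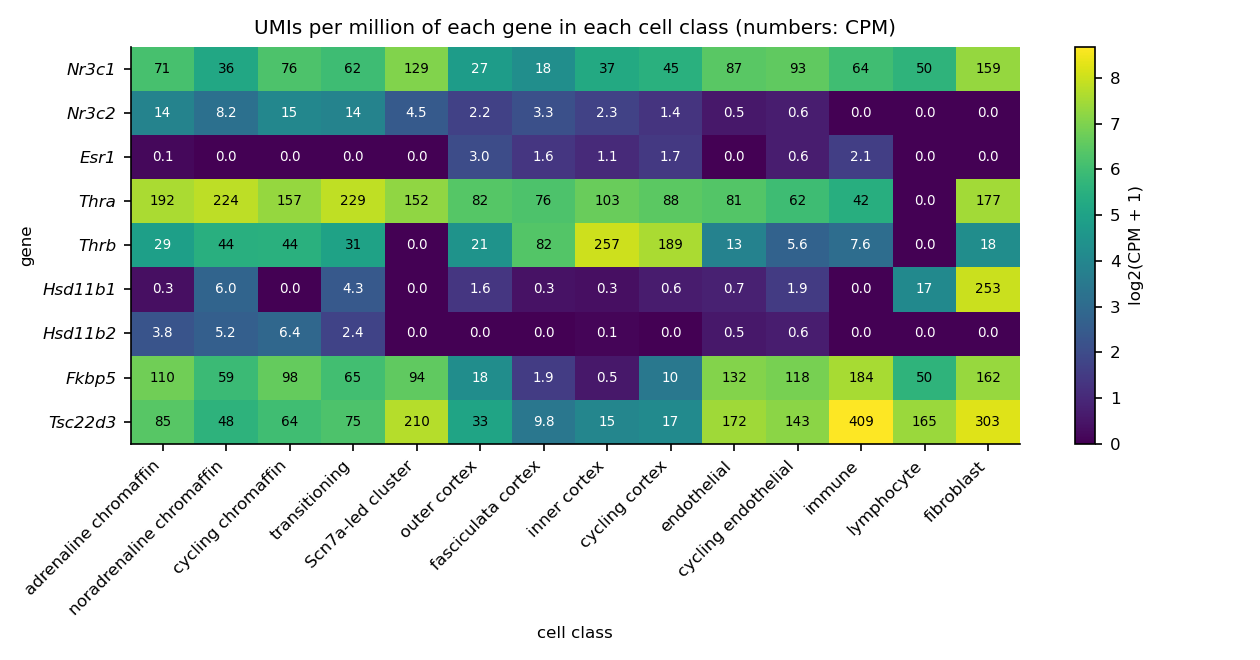
Each cell gives the level of a gene (rows) in a cell class (columns) in CPM, with colour showing log2(CPM + 1). Nr3c1, Thra, Fkbp5 and Tsc22d3 were found in nearly every class, Thrb was highest in the inner and cycling cortex, Hsd11b1 in fibroblasts, and Hsd11b2, Esr1 and Nr3c2 stayed below 20 CPM everywhere.

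The glucocorticoid receptor gene Nr3c1 was found in all 14 classes and had its lowest values in fasciculata, the zone that makes corticosterone, and in outer cortex, of which outer cortex overlapped with noradrenaline chromaffin cells. Its level was 18.3 CPM (15.0–22.2) in fasciculata, 26.5 (22.2–31.5) in outer, 37.3 (33.7–41.2) in inner and 44.6 (37.9–52.3) in cycling cortex. Adrenaline chromaffin cells stood at 71.0 CPM (65.1–77.4), 2.40 times (2.13–2.70) the 29.6 of the 3 cortex zones together. Noradrenaline chromaffin cells were lower, at 35.7 CPM (26.3–47.3), and overlapped with outer, inner and cycling cortex. Cycling chromaffin cells had 76.3 CPM (59.6–96.3) and transitioning cells 61.6 (52.3–72.0), both apart from noradrenaline cells and overlapping with adrenaline cells. Outside the endocrine cells, Nr3c1 reached 87.3 CPM (78.5–96.8) in endothelial, 93.5 (79.1–110) in cycling endothelial, 63.6 (51.3–78.0) in immune, 129 (86.6–186) in Scn7a-led and 159 (115–213) in fibroblast cells. The 3 UMIs in lymphocytes gave 49.5 CPM (10.2–145), which overlaps with most other classes. Fibroblasts, the Scn7a-led cluster, endothelial and cycling endothelial cells therefore stood above adrenaline chromaffin cells. Among these classes the only order resolved was that fibroblasts (from 115) lay above endothelial (to 96.8) and cycling endothelial cells (to 110).

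In the share of cells, 22.9% of adrenaline chromaffin cells (20.9–25, Clopper-Pearson) and 10.7% of noradrenaline cells (7.79–14.1) had an Nr3c1 UMI, at median depths of 3150 and 2683 UMIs. In fasciculata cells, at a greater median depth of 5553.5, the share was 10.6% (8.63–12.8). After every cell was thinned to 1000 UMIs, which left out shallower cells, the shares were 6.27% (5.15–7.54) in adrenaline, 3.78% (2.08–6.27) in noradrenaline and 1.14% (0.548–2.09) in fasciculata cells. Adrenaline cells thus stayed above fasciculata cells, but the chromaffin intervals then overlapped. Noradrenaline and fasciculata intervals overlapped before thinning and still touched after it.

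The mineralocorticoid receptor gene Nr3c2 was a low, mainly chromaffin transcript. It had 13.8 CPM (11.2–16.8) in adrenaline, 8.18 (4.09–14.6) in noradrenaline, 15.0 (8.23–25.3) in cycling chromaffin and 13.7 (9.57–19.1) in transitioning cells, and these 4 did not differ beyond their intervals. The 3 cortex zones together stood at 2.56 CPM (1.92–3.34), so that adrenaline cells were 5.39 times (3.84–7.65) higher. Outer cortex, which contains the aldosterone-making zone, had 2.23 CPM (1.11–3.98), fasciculata 3.32 (2.0–5.18), inner cortex 2.30 (1.47–3.42) and cycling cortex 1.45 (0.471–3.38), with no order among them. Endothelial cells had 2 UMIs (0.487 CPM, 0.0589–1.76), cycling endothelial cells 1 (0.623 CPM) and the Scn7a-led cluster 1 (4.46 CPM, 0.113–24.8). No UMI was seen in immune, lymphocyte or fibroblast cells, where 3 counts would be 2.07, 49.5 and 10.8 CPM.

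The oestrogen receptor gene Esr1 was close to the limit of detection. Outer cortex had 15 UMIs or 3.04 CPM (1.70–5.01). Cycling cortex had 1.74 (0.638–3.79), fasciculata 1.57 (0.719–2.98) and inner cortex 1.05 (0.526–1.89), all with overlapping intervals. Immune cells had 3 UMIs (2.07 CPM, 0.428–6.06), adrenaline chromaffin cells 1 (0.137 CPM, 0.00346–0.761) and cycling endothelial cells 1 (0.623 CPM). It was not seen in noradrenaline, cycling chromaffin, transitioning, Scn7a-led, endothelial, lymphocyte or fibroblast cells. For noradrenaline cells the limit of 3 counts is 2.23 CPM and for endothelial cells 0.730 CPM, while for lymphocytes it is 49.5 CPM, too coarse to read an absence.

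Thra, the more widely expressed thyroid hormone receptor gene, had high levels in the chromaffin lineage and in fibroblasts. It had 192 CPM (182–202) in adrenaline, 224 (199–251) in noradrenaline, 229 (211–249) in transitioning and 157 (133–185) in cycling chromaffin cells, and adrenaline cells stood 2.11 times (1.97–2.26) above the cortex. Noradrenaline and transitioning cells did not differ, and transitioning cells were above adrenaline cells. Fibroblasts had 177 CPM (131–234) and the Scn7a-led cluster 152 (105–212), both overlapping with adrenaline, noradrenaline and cycling chromaffin cells. The cortex lay lower, at 103 (97.1–110) in inner, 88.1 (78.5–98.6) in cycling, 82.4 (74.6–90.8) in outer and 75.8 (68.8–83.3) in fasciculata cells, where inner cortex was above the outer and fasciculata zones. Endothelial cells had 81.2 CPM (72.8–90.4), cycling endothelial cells 62.3 (50.7–75.8) and immune cells 42.2 (32.3–54.2), or 21.6 (13.2–33.4) without cells that had at least 2 markers of another class. Lymphocytes had no UMI, where 3 counts are 49.5 CPM. Thra overlaps Nr1d1 on the opposite strand, and how far reads of both were kept apart was not tested.

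Thrb had a different distribution and was a gene of the inner cortex. Inner cortex cells, marked by Akr1c18 and Pik3c2g, had 257 CPM (247–267) and cycling cortex cells 189 (175–204), against 81.9 (74.7–89.7) in fasciculata and 21.1 (17.2–25.5) in outer cortex. Each step in this order was apart from the next. The ratio of inner cortex to fasciculata was 3.14 (2.84–3.47), and outer cortex had 0.257 times (0.206–0.319) the fasciculata level. A Thrb UMI was found in 64.9% of inner cortex cells (62.6–67.2), in 32.8% (29.7–36.0) of fasciculata and in 10.8% (8.75–13.2) of outer cortex cells, at median depths of 4784, 5553.5 and 5112.5 UMIs. In immune cells, which gave a background, the share was 1.37% (0.628–2.58) at a median of 1741 UMIs. With cells thinned to 1000 UMIs the cortex shares were 23.0%, 5.93% and 1.53% in the same order. The immune share at that depth was 0.344% (0.0416–1.24), which overlapped with that of outer cortex (0.795–2.67). The most UMIs in a single cell were 17 in inner, 10 in fasciculata and 5 in outer cortex.

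**Figure D2:**
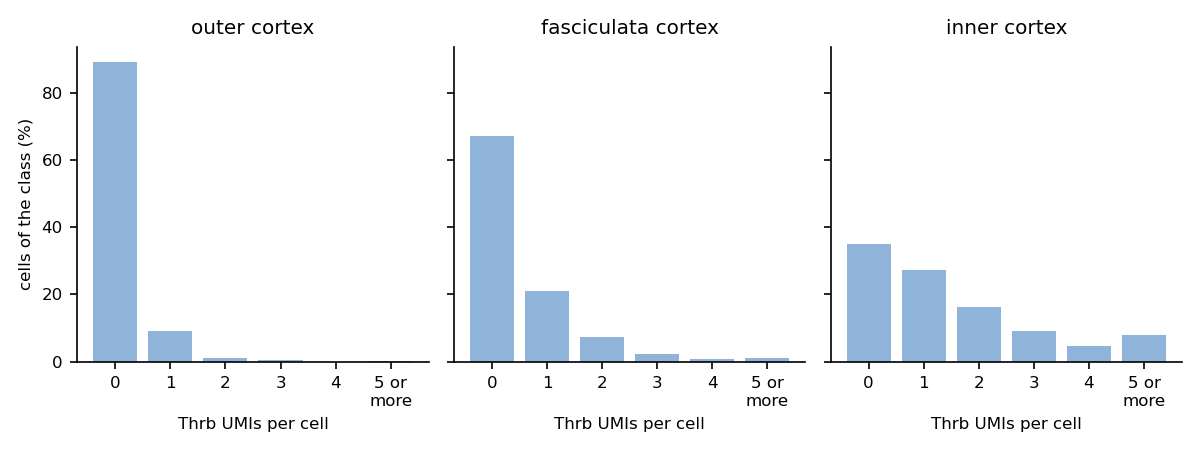
Bars give the percentage of cells (vertical axis) with 0 to 4, or 5 or more, Thrb UMIs (horizontal axis) in outer, fasciculata and inner cortex cells. Cells with 5 or more UMIs made up 7.80% of inner cortex, 1.14% of fasciculata and 0.128% of outer cortex cells.

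In the medulla Thrb was lower than in the cortex as a whole, at 28.5 CPM (24.8–32.7) in adrenaline, 43.9 (33.4–56.6) in noradrenaline, 31.0 (24.5–38.6) in transitioning and 44.1 (31.6–59.8) in cycling chromaffin cells. Cortex markers stood in cycling chromaffin cells at 8.65% of their cortex level, which as cortical RNA would bring 13.3 of those 44.1 CPM, and in adrenaline and noradrenaline cells at 0.716% and 0.719%, which would bring 1.10 and 1.11 CPM. Thrb had 13.4 CPM (10.1–17.4) in endothelial, 5.61 (2.56–10.6) in cycling endothelial, 7.60 (3.80–13.6) in immune and 18.1 (5.86–42.1) in fibroblast cells. It was not seen in the Scn7a-led cluster or in lymphocytes, with limits of 13.4 and 49.5 CPM. Leaving out cells with at least 2 markers of another class kept 35 of 88 fibroblasts, with no Thrb UMI (0–81.3 CPM). Their 45391 UMIs were too few to tell this from the level before. In immune cells the filter kept 495 of 657 cells and 1 Thrb UMI (1.08 CPM, 0.0274–6.03), which overlaps with the level before. In cycling chromaffin cells it kept 70 of 130 cells, with Thrb lower at 20.1 CPM (8.69–39.7). That interval also overlaps with the one before.

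Hsd11b1 was highest by far in fibroblasts. It had 70 UMIs in the 88 fibroblasts, or 253 CPM (197–319), and 43.2% of these cells (32.7–54.2) had at least 1, against 0.120% (0.0145–0.432) of adrenaline chromaffin cells. This was 346 times (114–1720) the endothelial level, which rests on 3 UMIs. Noradrenaline cells had 8 UMIs (5.95 CPM, 2.57–11.7), transitioning cells 11 (4.32 CPM, 2.15–7.72) and outer cortex cells 8 (1.62 CPM, 0.699–3.19). Adrenaline cells had 2 UMIs (0.273 CPM), fasciculata 2 (0.349 CPM), cycling cortex 2 (0.580 CPM), inner cortex 3 (0.287 CPM), endothelial cells 3 (0.730 CPM), cycling endothelial cells 3 (1.87 CPM) and lymphocytes 1 (16.5 CPM, 0.418–92.0). Cycling chromaffin, Scn7a-led and immune cells had none.

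The fibroblast class was mixed, because endothelial markers stood in it at 54.0% of their endothelial level and all 5 mural cell markers were detected, 2 of them in at least 50% of its cells. Split after these values were seen, 41 of the 88 cells had at least 2 fibroblast and fewer than 2 endothelial markers. These held 46 of the 70 Hsd11b1 UMIs, or 667 CPM (489–890). The 12 cells with endothelial markers only had 59.3 CPM (7.18–214), and the 31 cells with both had 112 CPM (67.3–175). The Hsd11b1 level was thus higher in the cells with fewer than 2 endothelial markers than in those with both. Depth differed between these groups, with 68917 UMIs in the 41 cells and 169946 in the 31, and its part was not tested. Tsc22d3 also stood higher in the first group, at 551 CPM (390–757) against 177 (119–252) in cells with both. Intervals overlapped for Nr3c1, with 189 CPM (100–323) in the first group and 159 (105–231) in cells with both. They also overlapped for Fkbp5 (174, 90.0–304, against 159, 105–231) and Thra (247, 144–395, against 129, 81.1–196).

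Hsd11b2 was a rare chromaffin transcript. It had 28 UMIs in adrenaline cells (3.82 CPM, 2.54–5.53), 7 in noradrenaline cells (5.21 CPM, 2.09–10.7), 6 in cycling chromaffin cells (6.45 CPM, 2.37–14.0) and 6 in transitioning cells (2.35 CPM, 0.864–5.12). A UMI was seen in 1.68% of adrenaline cells (1.12–2.41). Over the 3 cortex zones there was 1 UMI in 21101377, and in 0.0297% of cells (0.000752–0.165) at a greater median depth of 5093 UMIs, so the adrenaline level was 80.7 times (13.3–3300) the cortex level with only 1 UMI below the line. Endothelial cells had 2 UMIs (0.487 CPM), cycling endothelial cells 1 (0.623 CPM), inner cortex 1 (0.0958 CPM), and all other classes none.

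The glucocorticoid-induced gene Fkbp5 was near its limit of detection in fasciculata and inner cortex and far higher in immune, fibroblast and endothelial cells. Inner cortex had 5 UMIs, or 0.479 CPM (0.156–1.12), and fasciculata 11, or 1.92 CPM (0.959–3.44). Cycling cortex had 10.1 CPM (7.07–14.1) and outer cortex 18.0 (14.5–22.2). In the medulla it had 110 CPM (103–118) in adrenaline, 58.8 (46.5–73.2) in noradrenaline, 97.8 (78.8–120) in cycling chromaffin, 64.7 (55.2–75.4) in transitioning and 93.6 (58.0–143) in Scn7a-led cells. Endothelial cells had 132 CPM (121–144), cycling endothelial cells 118 (102–136), fibroblasts 162 (119–217), immune cells 184 (162–207) and lymphocytes 49.5 (10.2–145, 3 UMIs). Immune cells stood above endothelial cells, endothelial above adrenaline chromaffin, and adrenaline above noradrenaline and transitioning cells. An Fkbp5 UMI was found in 0.293% of inner cortex cells (0.0953–0.683) at a median of 4784 UMIs, against 24.2% (22.2–26.3) of endothelial cells at a median of 1772. The Fkbp5 window shown above held none of the marked motifs, which says only that these letters are not in those 250 bases.

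Tsc22d3 followed a similar order. It had 409 CPM (377–444) in immune cells, 303 (242–376) in fibroblasts, 210 (154–279) in the Scn7a-led cluster, 172 (160–185) in endothelial, 143 (125–162) in cycling endothelial and 165 (79.2–304) in lymphocyte cells. Chromaffin classes were lower, with 85.4 CPM (78.8–92.3) in adrenaline, 48.4 (37.3–61.6) in noradrenaline, 64.5 (49.2–83.0) in cycling chromaffin and 75.3 (65.1–86.8) in transitioning cells. The cortex had the lowest values, only outer cortex overlapping with noradrenaline cells, with 32.8 CPM (27.9–38.3) in outer, 16.8 (12.8–21.7) in cycling, 14.9 (12.6–17.4) in inner and 9.78 (7.39–12.7) in fasciculata cells. A UMI was found in 54.3% of immune cells (50.4–58.2) and in 7.74% of inner cortex cells (6.52–9.11). Immune cells had markers of other classes, with chromaffin markers at 5.95% of the adrenaline level, endothelial markers at 10.3% of the endothelial level and 11.7% of cells called doublets by Scrublet. Without cells that had at least 2 markers of another class, the immune level was 463 CPM (420–509) for Tsc22d3 and 202 (174–234) for Fkbp5, no lower than before. The same filter kept 35 of 88 fibroblasts, with Tsc22d3 at 639 CPM (428–918). The Tsc22d3 intervals of fibroblasts and immune cells then overlapped.

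**Figure D3:**
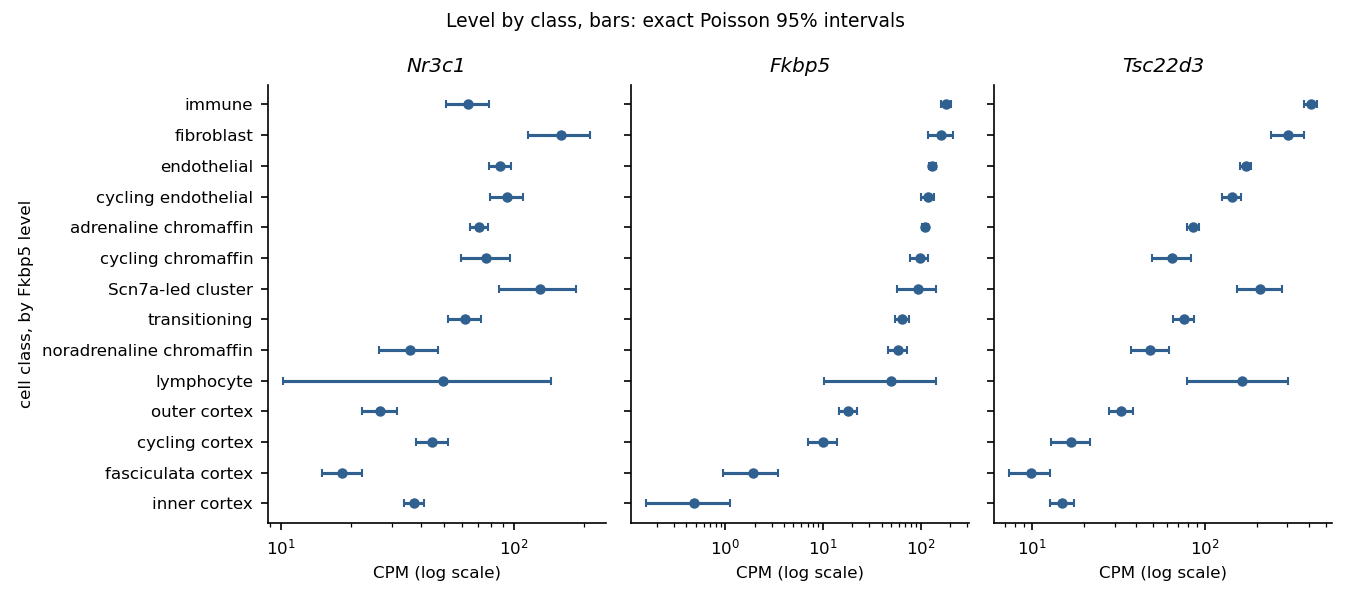
Points give the level of Nr3c1, Fkbp5 and Tsc22d3 (horizontal axes, CPM on a log scale) in each of the 14 cell classes (vertical axis, ordered by Fkbp5), and bars are exact Poisson 95% intervals. The 4 cortex classes sit lowest for Fkbp5, from 0.479 to 18.0 CPM, and for Tsc22d3, from 9.78 to 32.8, while fibroblasts stand at 159 CPM for Nr3c1.

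Set against the 3 cortex zones, endothelial cells had 26.5 times (21.5–33.0) the Fkbp5 level, 9.73 times (8.57–11.1) that of Tsc22d3 and 2.95 times (2.58–3.36) that of Nr3c1. Of the 7 of the 9 genes with at least 20 UMIs in both classes together, these 3 were at least 2-fold higher in endothelial cells and Nr3c2, Esr1 and Thrb at least 2-fold lower, where 44.7% of the 12920 genes so measured passed 2-fold in either direction (22.2% higher and 22.4% lower in endothelial cells). Immune cells had 37.0 times (29.4–46.8) the cortical Fkbp5 and 23.2 times (20.3–26.4) the cortical Tsc22d3, with 3 genes higher (Nr3c1 as well) and 3 lower (Nr3c2, Thra and Thrb) of 7, against 45.5% of 12940 genes (21.1% higher and 24.4% lower). Nr3c2 had no UMI in immune cells, and its ratio interval (0–1.03) included 1. Adrenaline cells had 22.2 times (18.1–27.4) the cortical Fkbp5 and 4.83 times (4.24–5.51) the cortical Tsc22d3, and 6 of 8 genes were higher and 2 lower, against 46.1% of 13748 genes (23.9% higher and 22.2% lower). The comparisons share the cortex cells. Outer cortex gave 89 of the 105 cortical Fkbp5 UMIs. Endothelial markers stood in the 3 zones together at 3.18% of their endothelial level. As endothelial RNA this would bring 4.21 of the 4.98 CPM of Fkbp5 and 5.48 of the 17.7 CPM of Tsc22d3, and its part in the ratios was not tested.

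Within the cortex, outer cortex cells had 9.38 times (5.00–19.5) the fasciculata level of Fkbp5 and 3.35 times (2.46–4.63) that of Tsc22d3, while Thrb was lower, so that 3 of 7 genes passed 2-fold against 16.5% of 11494 genes (13.1% higher and 3.4% lower). Endothelial markers stood in outer cortex cells at 12.6% of their endothelial level, and that share of endothelial RNA would carry 16.6 of the 18.0 CPM of Fkbp5, 21.7 of the 32.8 CPM of Tsc22d3 and 11 of the 26.5 CPM of Nr3c1. Leaving out cells with at least 2 markers of another class kept 467 of 784 outer cortex cells. Fkbp5 was then at 5.57 CPM (2.96–9.52) against 1.46 (0.588–3.02) in fasciculata, and Tsc22d3 at 15.4 (10.8–21.3) against 9.20 (6.68–12.3). Both values were still higher in outer cortex, with overlapping intervals. Such an overlap does not show that a difference is gone, and no ratio interval was taken after this filter. Nr3c1 was at 13.7 CPM (9.37–19.3) in the kept outer cortex cells and no longer above fasciculata (16.7, 13.3–20.8). For Thrb the intervals stayed apart, at 16.3 CPM (11.5–22.3) against 81.3 (73.4–89.8). Immediate-early and stress genes moved with the outer cortex as well, 11 of 11 measured being at least 2-fold higher there, Atf3 10.2 times (8.20–12.7) and Fos 5.31 times (5.04–5.60), and their part in the result was not tested.

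Inner cortex against fasciculata gave 2 genes higher by at least 2-fold, Thrb and Nr3c1 (2.03 times, 1.63–2.55), and none lower of 6 measured, against 17% of 11286 genes (6.04% higher and 10.9% lower). Tsc22d3 was at 1.52 times (1.11–2.10) and Thra at 1.36 times (1.22–1.53) the fasciculata level. Fibroblasts against endothelial cells gave Hsd11b1 and Thra (2.18 times, 1.58–2.95) of 6 measured, against 21.8% of 9991 genes (13.4% higher and 8.35% lower). The Scn7a-led cluster against noradrenaline cells gave Nr3c1 (3.62 times, 2.20–5.86) and Tsc22d3 (4.33 times, 2.91–6.4) higher and Thrb lower of 5 measured, against 35.8% of 7844 genes (14% higher and 21.7% lower). Transitioning against noradrenaline cells gave none of 6, against 9.15% of 10371 genes (7.88% higher and 1.27% lower), although Nr3c1 (1.73 times, 1.24–2.44) and Tsc22d3 (1.56 times, 1.17–2.10) stood somewhat higher.

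Adrenaline cells had more of the glucocorticoid receptor and of both its target genes than noradrenaline cells, and less of the thyroid hormone receptor Thrb. Nr3c1 was at 71.0 against 35.7 CPM, a ratio of 1.99 (1.48–2.73), Fkbp5 at 110 against 58.8 CPM, a ratio of 1.88 (1.49–2.39), and Tsc22d3 at 85.4 against 48.4 CPM, a ratio of 1.77 (1.37–2.32). Thrb was at 28.5 against 43.9 CPM, a ratio of 0.650 (0.485–0.884), and Thra at 192 against 224 CPM, a ratio of 0.858 (0.757–0.975). For Thra the intervals of the 2 levels overlapped (182–202 and 199–251), and 49.6% and 49.2% of cells had a UMI. These 5 of the 7 genes with at least 20 UMIs had a ratio interval off 1, 3 above and 2 below. So had 27.6% of the 11575 genes measured (13.1% above and 14.5% below). But none of the 7 genes with at least 20 UMIs passed 2-fold, against 14.2% of all genes measured (8.06% higher and 6.15% lower in adrenaline cells). Nr3c1 was at the edge of that limit and passed it in 5 of 11 alternative treatments of the data, over which its ratio ran from 1.78 to 2.07. The median log2 ratio of the 7 genes was 0.70, where that of all genes was −0.02. That median is the value of Nr3c2 alone, whose ratio interval spanned 1, and the 7 genes lay on both sides of 1.

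Nr3c2, Hsd11b2 and Esr1 were not resolved between the chromaffin types. Nr3c2 had a ratio of 1.69 (0.903–3.48) and Hsd11b2 of 0.734 (0.313–1.99). Esr1 had 1 UMI against 0, which gives no ratio. Hsd11b1 had 2 UMIs in 7321092 against 8 in 1344168, a ratio of 0.0459 (0.00475–0.230). On these few UMIs Hsd11b1 was lower in adrenaline cells, past 2-fold under all 11 alternative settings. They were too few for it to enter the count of measured genes. In 1 of these 11 settings, without cells that had at least 2 markers of another class, the intervals of the 2 levels overlapped. They stood at 0.363 CPM (0.044–1.31) against 3.58 (0.975–9.16, 4 UMIs). Whether RNA from fibroblasts, where Hsd11b1 was highest, contributed was not tested. Pnmt, which set the boundary between the types, was 49.9 times (44.7–55.9) higher in adrenaline cells by construction.

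The adrenaline cells fell into 3 clusters, of 820, 743 and 108 cells, that did not have the same receptor and target levels. Nr3c1 was at 52.7, 77.9 and 77.0 CPM and Fkbp5 at 85.1, 122 and 90.2 CPM, so that the second cluster, with a median of 5497 UMIs per cell, stood above the first for both genes. The third cluster, of few cells, overlapped with the second for both. Tsc22d3 ran the other way between the first clusters, with 107, 71.8 and 151 CPM. The third cluster was led by stress and immediate-early genes such as Atf3 and Egr3. Over noradrenaline cells Nr3c1 had ratios of 1.48 (1.04–2.12), 2.18 (1.61–3.01) and 2.15 (1.31–3.49), and Tsc22d3 of 2.21 (1.67–2.97), 1.49 (1.14–1.97) and 3.13 (2.15–4.53). Fkbp5 had ratios of 1.45 (1.10–1.92), 2.07 (1.64–2.65) and 1.54 (0.995–2.32). Thrb was below noradrenaline cells in each cluster, at 0.519 (0.344–0.779), 0.720 (0.530–0.988) and 0.423 (0.163–0.928). Thra had ratios of 0.826 (0.707–0.965), 0.871 (0.764–0.994) and 0.853 (0.650–1.11), the last interval spanning 1. Without the stress-led cluster the ratios of the pooled cells were 1.98 for Nr3c1, 1.89 for Fkbp5 and 1.69 for Tsc22d3.

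**Figure D4:**
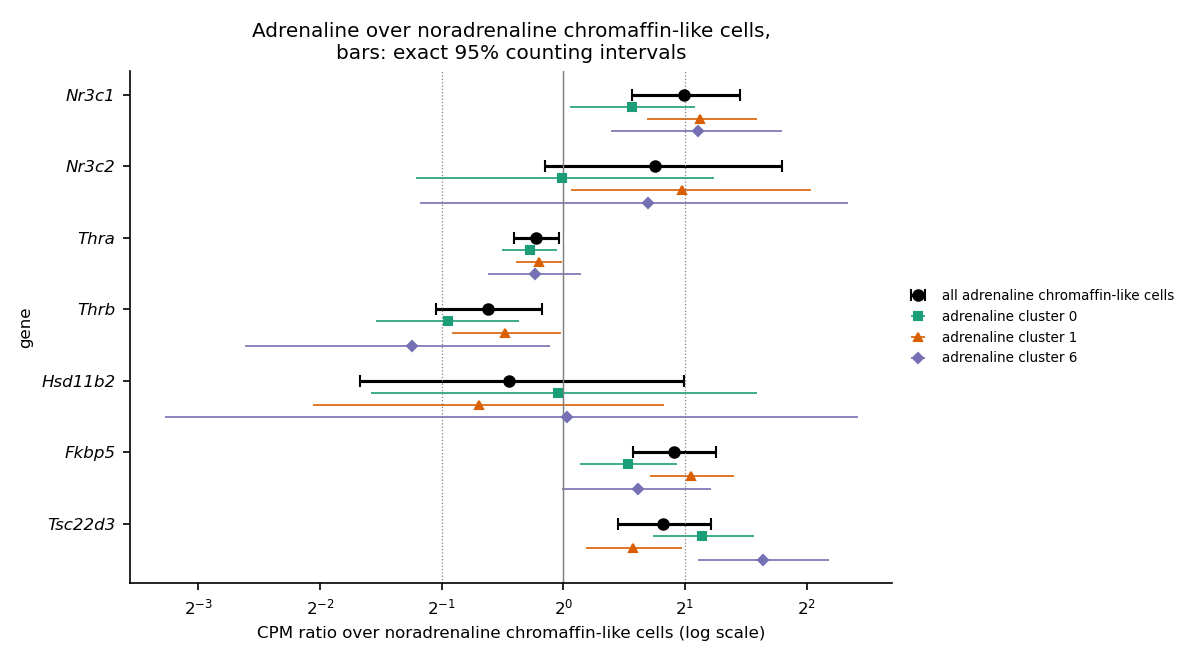
Black points give the ratio of CPM in adrenaline over noradrenaline chromaffin cells (horizontal axis, log scale) for each gene with a ratio other than Hsd11b1, coloured points the same for each of the 3 adrenaline clusters, and bars exact 95% counting intervals. Clusters 0, 1 and 6 in the legend are the clusters of 820, 743 and 108 cells. Nr3c1, Fkbp5 and Tsc22d3 lie between 1.77 and 1.99 and Thrb at 0.650, with the dotted lines marking a 2-fold difference.

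A list of 25 glucocorticoid-induced genes, which includes Fkbp5 and Tsc22d3, was counted in the same way. Between adrenaline and noradrenaline cells 20 could be measured, of which 4 were at least 2-fold higher in adrenaline cells and none lower, where 8.06% of all genes were higher and 6.15% lower, with a median log2 ratio of 0.42. The 4 were the metallothioneins Mt1 (1894 against 369 CPM, 5.13 times, 4.69–5.62) and Mt2 (433 against 62.5 CPM, 6.94 times, 5.58–8.72), the kinase gene Map3k6 (14.3 times, 3.90–119, with 2 UMIs in noradrenaline cells) and Klf15 (2.33 times, 0.738–11.8, with 3 UMIs). Metallothioneins bind zinc and also respond to metals and stress. The phosphatase gene Dusp1 was at 0.604 times (0.543–0.674) and Klf9 at 0.982 times (0.843–1.15) the noradrenaline level, so genes of the list differed in direction.

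In endothelial cells against the cortex all 25 could be measured, and 15 were at least 2-fold higher and 4 lower (22.2% and 22.4% of all genes), with a median log2 ratio of 2.08 where that of all genes was 0.07. In immune cells 15 of 24 were higher and 1 lower (21.1% and 24.4% of all genes), with a median of 1.55 where that of all genes was −0.12. Tgm2 (41.4 times, 32.3–53.9, in endothelial cells), Sult1a1 (37.5 times, 31.0–45.7) and Cdkn1a (11.2 times, 9.83–12.7) were among those with large ratios, and the circadian gene Per1 was at 1.00 times (0.738–1.35). Of the genes lower in endothelial cells, Glul, glutamine synthetase, was at 0.247 times (0.218–0.279) and Cebpb at 0.258 times (0.217–0.306) the cortical level. Of 12 immediate-early and stress genes against the cortex, 6 were at least 2-fold higher in endothelial and 9 in immune cells, with none lower. Their median log2 ratios were 1.06 and 1.54, and their part in the counts above was not tested. Adrenaline cells against the cortex gave 9 higher and 7 lower of the 25 glucocorticoid-induced genes (23.9% and 22.2% of all genes), with a median of −0.01. Outer cortex against fasciculata gave 11 higher and 2 lower of 20 (13.1% and 3.4% of all genes), with the endothelial and stress RNA given above. Inner cortex against fasciculata gave 5 higher of 18, Klf15 (5.88 times, 3.4–11) with the largest ratio, and none lower (6.04% and 10.9% of all genes).

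**Figure D5:**
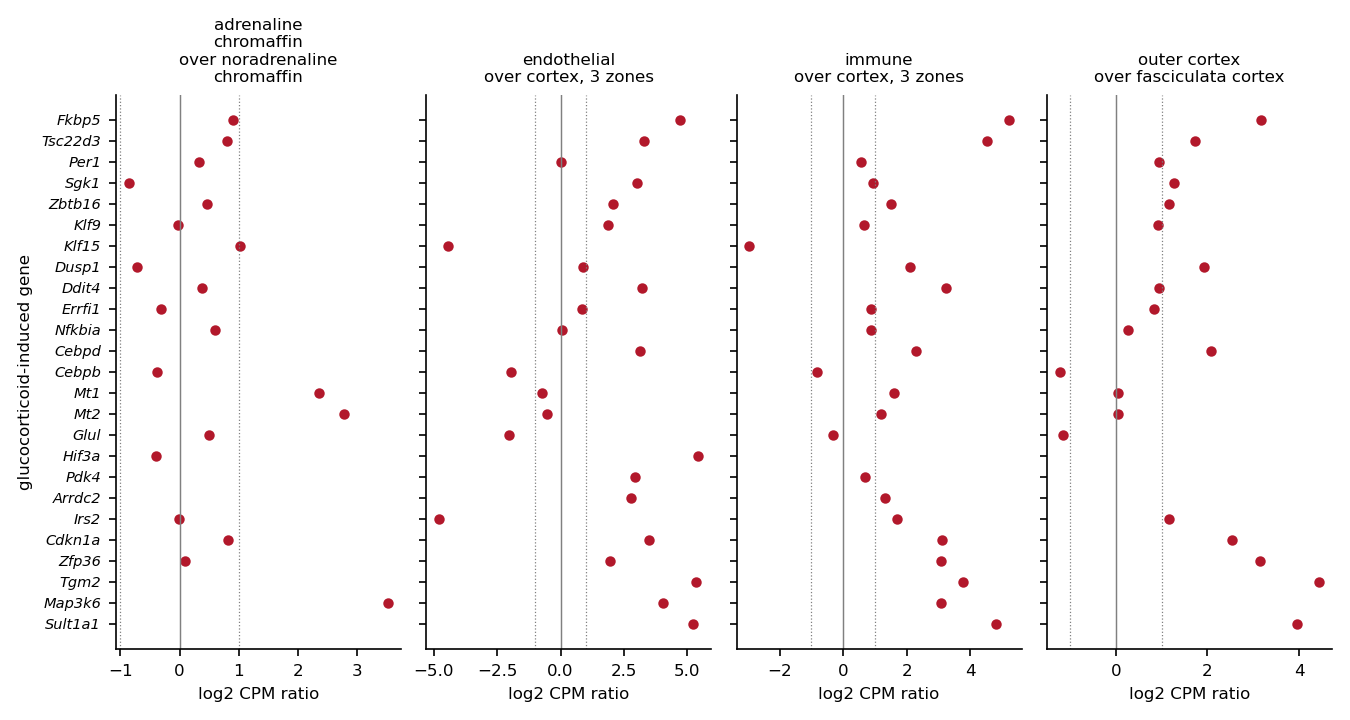
Points give the log2 ratio of CPM (horizontal axes, each on its own scale) for the 25 glucocorticoid-induced genes (vertical axis) in 4 comparisons, with genes under 20 UMIs in both classes left out and dotted lines at 2-fold. Fkbp5 and Tsc22d3 lie to the right of 0 in all 4, while Klf15, Cebpb and Glul lie to the left in endothelial cells.

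Genes of the same pathways that are not in the set were counted against the same limit between adrenaline and noradrenaline cells. Of all genes measured there, 8.06% were higher and 6.15% lower in adrenaline cells. None of 9 receptor chaperones (median log2 ratio 0.00) and none of 9 coregulators (median −0.22) passed it. Of 11 other steroid, orphan and retinoid receptors, 8 could be measured and 1 was higher, Pgr, on 28 against 2 UMIs. Of 7 mineralocorticoid targets 4 could be measured, and 2 were lower in adrenaline cells, the sodium channel subunit gene Scnn1b (1.37 against 58.8 CPM) and its ubiquitin ligase Nedd4l (11.9 against 29.0 CPM), while Atp1b1, a sodium pump subunit, was at 1.77 times (1.63–1.93) the noradrenaline level. Of 12 genes of thyroid hormone transport, metabolism and response 6 could be measured and 1 was higher, the transporter gene Slc7a5, on 48 against 2 UMIs. Of 3 catecholamine genes responsive to glucocorticoid, Pnmt was higher, Th was at 1.63 times (1.56–1.72) and Dbh at 0.832 times (0.793–0.874). Of 5 oestrogen targets 4 could be measured, with Pgr higher and Greb1 (0.466 times, 0.239–0.965) lower.

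In the inner cortex, where Thrb was highest, 4 of 8 measured thyroid genes were at least 2-fold above fasciculata and 2 were below, where 6.04% and 10.9% of all genes were. Among the higher ones were Thrsp (293 against 45.9 CPM, 6.39 times, 5.63–7.27) and the malic enzyme gene Me1 (3.23 times, 3.15–3.32), both known as thyroid hormone targets in liver, and the transporter gene Slc16a10 (2.57 times, 1.68–4.10). The lower ones were Dio3, which inactivates thyroid hormone (0.114 times, 0.0385–0.278), and Crym, a cytosolic thyroid hormone binding protein (0.25 times, 0.172–0.358). Klf9 was at 1.06 times (0.941–1.19), and Thrsp was higher still in endothelial cells, at 423 CPM (403–443), where Thrb was at 13.4.

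Across the 14 classes, the gene whose levels ran most like those of Fkbp5 was Gm22146 (Pearson r of log2(CPM + 10) 0.944), a short RNA annotated on the opposite strand inside Fkbp5 itself, and it was also the most like Tsc22d3 (0.952). Whether its UMIs are separate from those of Fkbp5 was not tested. The nearest genes were B4gat1 for Thra (0.979), Ndufs4 for Thrb (0.973), Ccl19 for Hsd11b1 (0.951) and Galnt1 for Nr3c1 (0.897), out of 12501 genes with at least 100 UMIs. These are descriptions over 14 points that share a library and differ in depth, and Nr3c2, Esr1 and Hsd11b2, never above 20 CPM, were left out of them.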

How the data were processed

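A single droplet library of pooled adrenal medulla was analysed. The UMI counts per gene and barcode, raw whole numbers, were made by the authors with Cell Ranger 4.0.0 against mm10 and deposited as a filtered matrix. All cells belong to 1 sample, so cells were never used as replicates and no test was run.

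Cells with 500 to 5000 genes and at most 20% mitochondrial UMIs were kept, as in the study's methods, and clustered under R 4.3.3 with Seurat 5.3.0, together with Matrix 1.6.5 and SeuratObject 5.2.0, on 2000 variable features, 10 principal components and resolution 0.4. Of those features, 22 genes of the lists used here were left out, and 26 when medullary cells were clustered again, in 3 passes. A cluster took a name when at least 3 of its markers had a UMI in enough of its cells, 50% as a rule and 25% for some lists. Doublets were not removed. Scrublet (scanpy 1.11.5) called 669 of 10139 cells (6.60%), and their removal was an alternative. UMIs were summed per class with Python 3.11.15, numpy 2.4.6, scipy 1.17.1 and pandas 2.3.3, and plotted with matplotlib 3.10.9. Levels have exact Poisson, shares exact Clopper-Pearson and ratios exact conditional binomial 95% intervals, for counting error only. A count of 0 is limited by 3 counts. A gene was measured in a comparison with at least 20 UMIs in both classes together and passed when its ratio, with 0.5 UMI added to each count, was at least 2-fold. The script was tested on simulated data.

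Members and lists were chosen with earlier results of these data known. All 9 genes were named, with up to 4 genes per list by largest ratio between chromaffin types. Dusp1, Klf9, Th, Dbh, Atp1b1 and the genes named in other comparisons were chosen after their values were seen. Some genes of the lists are counted but not reported here by name. Promoter windows are from RefSeq (GRCm38.p6), trimmed by GENCODE M21 exons. Alternatives changed the resolution, number of components, features, cell filters, doublets, naming of cells, averaging, thinning and UMI minimum.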

Additional observations from a re-analysis of the deposited data

How the results depend on the processing

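The 88 ratios of adrenaline over noradrenaline chromaffin cells recomputed under other settings all stayed within the counting interval of the reported value, with Nr3c1 between 1.78 and 2.07, Fkbp5 between 1.81 and 2.08, Tsc22d3 between 1.5 and 2.01 and Thrb between 0.558 and 0.807. Fkbp5 and Tsc22d3 each passed 2-fold under 1 of 11 settings. At resolution 0.2, 4 of the 9 genes kept the class in which they were highest. Zones of the cortex merged at that setting, but only Thrb and Esr1 had been highest in a cortex class. What moved the other genes was not tested. With a minimum of 100 UMIs, 373 genes were higher and 282 lower in adrenaline cells, against 933 and 712. Levels moved beyond their interval in 89 of 936 cases, 19 of them under the stricter cell filter (1000 genes, 10% mitochondrial UMIs) and 18 without cells that had markers of another class. Shares of cells moved in 183 of 234 cases under a limit of 2 UMIs or thinning, which also leaves out shallow cells. Leaving out the stress-led adrenaline cluster, dividing by the median ratio and leaving out cells with markers of another class were chosen after seeing the data. No paired analysis was possible because there was 1 library. Depth limits Esr1, Hsd11b2 and every gene in the lymphocyte class.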

Other observations

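Some steroid-handling genes differed between cell classes as well. Abcb1a, a drug and steroid efflux pump, was at 1.09 CPM in adrenaline and 46.9 in noradrenaline chromaffin cells, 42.9 times higher (20.5–104) in the latter. It was 1 of 5 measured genes of steroid activation, export and binding to pass 2-fold there, where 14.2% of all genes did. In the inner cortex, Akr1c18, a progesterone-metabolising enzyme and marker of that zone, was 20.6 times and Abcb1b 3.38 times the fasciculata level. Akr1c18 helped to name the inner cortex and Abcb1b fasciculata, so neither ratio is independent of the naming.

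Gper1, a membrane oestrogen receptor gene, was at 23.8 CPM in adrenaline and 40.9 in noradrenaline cells, a ratio of 0.581 (0.427–0.802), while Esr1 was at the limit of detection in both. Of the immediate-early and stress genes, 1 of 12 was at least 2-fold higher in adrenaline than in noradrenaline cells (Egr1, 2.18 times) and 1 lower (Atf3, 0.435 times). These counts are near the shares of all genes, of which 8.06% were higher and 6.15% lower.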
